A study of Mus musculus with 6 samples.

Results

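The immediate early genes Fos, Fosb, Fosl1, Fosl2, Jun, Junb, Jund, Egr1, Ier2 and Atf3 were followed by CAGE in nuclear RNA of mouse embryonic stem cells (mESCs) and oligodendrocyte progenitor cells (mOPCs). These 10 genes were taken by name from 55450 annotated genes, with earlier results of these data known. In CAGE, each tag is read from the capped 5′ end of an RNA molecule, and its alignment shows the base where that RNA begins. The level of a gene is given in TPM, the tags within 500 bp of its annotated 5′ ends on its own strand per 1000000 tags of the library, a value that does not grow with gene length.

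Each cell type had 3 libraries, prepared from batches of cells of different passage number. The mESCs were the R08 line, grown without feeder cells in medium with serum and leukemia inhibitory factor. The mOPCs were the oli-neu line, grown on poly-L-lysine in medium with N2 supplement, T3, L-thyroxine, bFGF and PDGF-BB. Each group is thus 1 line in its own medium, and neither received a treatment or an acute stimulus by the labels. Cell type, medium and the library label that all libraries of a cell type share cannot be told apart in this design. In RNA from a whole culture, fewer cells expressing a gene and less RNA per cell cannot be told apart either.

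The libraries held 16657021 to 40928704 tags. All mESC markers listed for the check (9 of 9, among them Pou5f1 and Nanog) were called lower in mOPCs, against 48.5% of all tested genes. Their summed level was 3997 to 4330 TPM in mESCs and 41.2 to 46.0 in mOPCs. Pou5f1 and Nanog had no tag in mOPCs and so passed the filter on low counts through mESCs alone and had to differ. Of 8 progenitor markers, 7 were tested and called higher in mOPCs, as were 42.7% of all tested genes. The markers summed to 14.7 to 15.5 TPM in mESCs and 2570 to 2718 in mOPCs, and Nkx2-2 had no tag in mOPCs. Pdgfra stood at only 8.33 ± 0.444 TPM in mOPCs (SD, n = 3). Markers of differentiated oligodendrocytes (4 of 4 called higher) summed to 247 to 283 TPM in mOPCs and 2.40 to 3.20 in mESCs. Neuron markers summed to 80.6 to 101 in mOPCs, all from Syt1 (88.3 ± 11), while Rbfox3 and Snap25 had no tag there. Fibroblast markers summed to 2.32 to 2.40 in mESCs and 9.67 to 12.3 in mOPCs, astrocyte markers to 7.86 to 10.6 and 0.806 to 1.14, and microglia markers stayed at or below 0.139 everywhere. The part of these cells in the results for the immediate early genes was not tested.

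Immediate early genes are switched on within minutes of a growth factor, depolarization or stress, by transcription factors that are already present in the cell, and need no new protein for it. Fos and Jun proteins pair through leucine zippers into the AP-1 factor. Fos proteins bind DNA only with a partner, while Jun proteins can also pair with each other. Growth factor receptors reach these genes mainly through the ERK cascade and the serum response factor with its Elk partners, and the JNK kinases act on Jun itself. The mRNAs and proteins are short-lived, so their levels follow the current signal.

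The promoters printed next are those where the tags can be set beside the sequence, ordered by family and read 5′ to 3′ on the strand of the gene. RefSeq promoter windows of 300 bases (GRCm38.p6, the build of the files) were found for 7 of the 10 genes, and the window held the dominant start, the position with the highest mean TPM, for Fos, Fosb, Jun and Junb. These 4 sequences end at that dominant position. That of Atf3 ends at the last base before the RefSeq start. Capitals mark TATAA or ATAAA 20 to 45 bases before the dominant position, TGACG or TGACNTCA (letters of CRE and AP-1 sites) and CCAAT. The windows lie at chr12:85473640-85473889 on the plus strand, and at chr7:19310046-19310295, chr4:95052197-95052472, chr8:84978719-84978998 and chr1:191183334-191183583 on the minus strand.
Fos: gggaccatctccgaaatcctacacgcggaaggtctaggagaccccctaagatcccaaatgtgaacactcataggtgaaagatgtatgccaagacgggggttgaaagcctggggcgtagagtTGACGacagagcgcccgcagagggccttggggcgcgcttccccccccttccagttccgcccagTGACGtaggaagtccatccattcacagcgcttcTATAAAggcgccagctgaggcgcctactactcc
Fosb: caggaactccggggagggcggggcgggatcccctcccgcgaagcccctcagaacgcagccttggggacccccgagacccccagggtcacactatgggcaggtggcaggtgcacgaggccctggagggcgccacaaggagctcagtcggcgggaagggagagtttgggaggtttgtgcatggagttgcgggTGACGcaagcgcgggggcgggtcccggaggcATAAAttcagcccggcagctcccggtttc
Jun: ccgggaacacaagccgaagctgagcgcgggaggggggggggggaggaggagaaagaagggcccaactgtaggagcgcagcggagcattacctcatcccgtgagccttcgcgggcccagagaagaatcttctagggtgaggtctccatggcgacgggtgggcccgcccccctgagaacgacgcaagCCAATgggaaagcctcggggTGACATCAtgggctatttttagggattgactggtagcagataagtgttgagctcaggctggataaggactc
Junb: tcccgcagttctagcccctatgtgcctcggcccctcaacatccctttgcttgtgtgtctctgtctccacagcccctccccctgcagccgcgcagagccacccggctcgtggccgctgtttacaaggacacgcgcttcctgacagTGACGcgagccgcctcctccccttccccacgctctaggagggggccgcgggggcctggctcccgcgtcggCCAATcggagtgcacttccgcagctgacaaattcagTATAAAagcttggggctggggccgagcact
Atf3: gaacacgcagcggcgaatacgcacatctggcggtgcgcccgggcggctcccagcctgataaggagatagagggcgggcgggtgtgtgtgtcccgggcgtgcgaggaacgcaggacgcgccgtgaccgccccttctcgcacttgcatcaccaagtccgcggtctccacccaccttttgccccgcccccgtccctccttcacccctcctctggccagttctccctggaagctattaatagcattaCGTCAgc

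A TATA-like run lay close before the dominant start in 3 of these genes. It began 32 bases upstream in Fos and 29 in Junb, where TATAA and ATAAA overlap as 1 run, and 28 in Fosb, which holds ATAAA without TATAA. Jun had neither. Such letters were present 20 to 45 bases upstream in 2.73% of the 4829 genes with a window around their dominant start, in 50% of the 134 with a narrow start region (a mean width of at most 10 bp in both cell types) and in 1.38% of the 4695 wider ones. The letters did not sort these 4 genes by width, given with the start positions. Jun, without them, started over a broader stretch than Fos and Junb, but Fosb, with ATAAA, was broader than Jun in mOPCs.

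In the 250 bases before the RefSeq start, searched on both strands, TGACG was found in 4 of the 7 genes (Fos, Fosb, Junb and Atf3) and in 17.8% of all 32851 windows of the table. The copy nearest to the dominant start began 65 bases upstream of it in Fos, 59 in Fosb and 135 in Junb. In Atf3 it lay on the opposite strand, 83 to 87 bases upstream. Jun carried the related TGACATCA 63 to 70 bases upstream, a match to TGACNTCA, which 7.49% of the windows hold. CCAAT lay in Jun and Junb (33.8% of windows), GGGCGG in 5 of the 7 genes (32.7%), and TGANTCA (6.75%) and the CArG box bound by serum response factor (1.47%) in none of these stretches. Egr1 was not among the genes searched, and sequence further upstream was not covered for any gene. Matches overlap where TGACNTCA contains TGACG. They describe letters in these windows and say nothing of binding.

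A base count shows how the deposited positions are set. Transcription usually begins at a purine that follows a pyrimidine. The dominant position was a pyrimidine followed by a purine in Fos, Fosb, Jun and Junb, and in 88.9% of the 4829 genes, whereas a purine at the position itself after a pyrimidine was found in 1.08%. The listed positions thus lay mostly 1 base before such a purine, and distances to annotated starts of 1 bp carry no meaning.

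All 10 genes passed the filter on low counts, but Fosb only through mOPCs and Fosl1 only through mESCs. A gene that enters in this way has to differ, so these genes are described by their tags and left out of the counts here. The other 8 members passed in both cell types, and each differed by edgeR's quasi-likelihood test (Benjamini-Hochberg adjusted p under 0.05 over 18490 genes). That by itself says nothing about them, because 88.7% of the 13132 genes that passed in both cell types were called, and 91.2% of all tested genes. By direction, 6 of the 8 were called higher in mOPCs, against 46.6% of these 13132 genes, and 2 lower, against 42.1%. A rise of more than 2 on the log2 scale was found in Fos, Fosl2, Jun, Egr1 and Atf3, 5 of 8 members against 14.4%, and a fall of that size in Ier2, 1 of 8 against 12.1%. The median log2 fold change (mOPCs over mESCs) was 2.59 over the 8 members and 0.09 over the 13132 genes. Together the members held 588 to 694 TPM in mESCs and 1451 to 2080 in mOPCs.

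**Figure D1:**
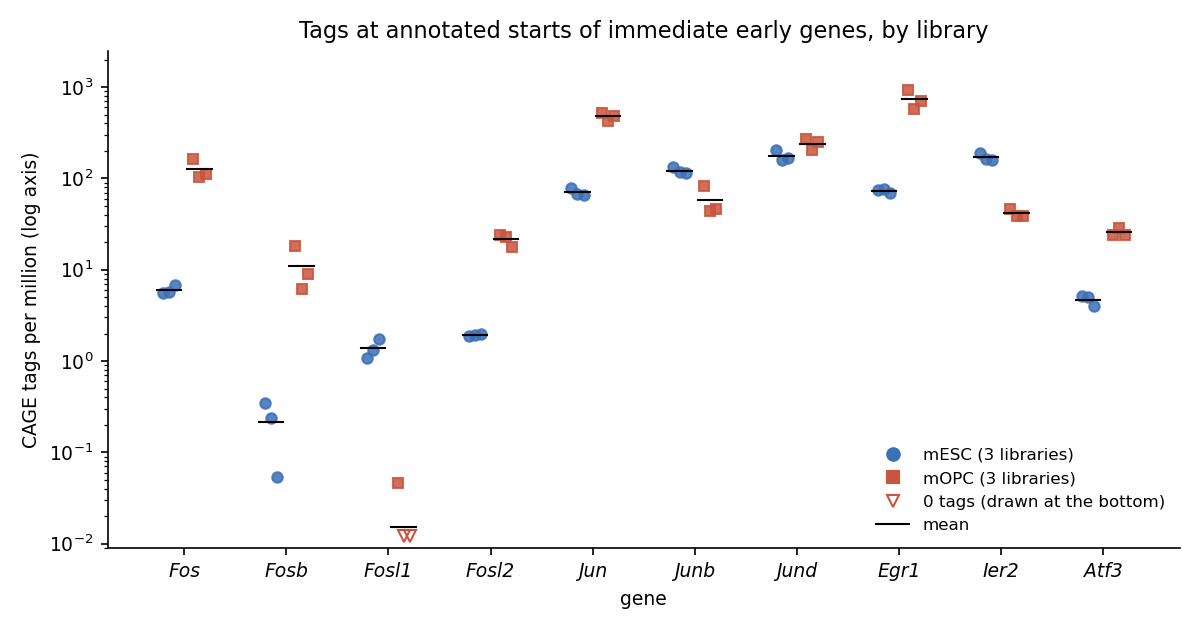
TPM within 500 bp of annotated 5′ ends (log axis) for each immediate early gene, in 3 mESC (circles) and 3 mOPC libraries (squares). Short lines are means and open triangles at the bottom mark libraries with 0 tags. Fos, Fosb, Fosl2, Jun, Egr1 and Atf3 sit higher in every mOPC library, Junb, Ier2 and Fosl1 lower, and for Jund the highest mESC library (204.7) comes close to the lowest mOPC library (205.2).

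The Fos family was low in mESCs and, with the exception of Fosl1, higher in mOPCs. Fos, the founding member and a classical mark of recent stimulation, had 5.60, 5.64 and 6.78 TPM in mESC 1 to 3, and 161, 105 and 111 in mOPC 1 to 3. The groups were far apart, although mOPC 1 exceeded the other mOPC libraries. The level was 20.9-fold higher in mOPCs (log2 fold change 4.40 ± 0.20 SE, adjusted p = 2.62e-08), and counting all tags inside the gene gave 5.03.

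Fosb, a close relative that also gives rise to the stable splice form ΔFosB, had 13, 4 and 1 tags in the mESC libraries, which is 0.343, 0.240 and 0.0543 TPM. In mOPCs its levels were 18.1, 6.17 and 8.94 TPM. Near silence in mESCs thus stood against a modest level in mOPCs that varied between libraries. The fitted log2 fold change was 5.44 ± 0.85 SE, given as a description because the gene passed the filter through mOPCs alone. It was 6.19 without mESC 1, which holds most of the mESC tags, 4.94 without mOPC 1, and 4.66 over all tags inside the gene.

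Fosl2 (Fra-2), a Fos protein without the strong activation domain of Fos, had 1.90, 1.92 and 1.95 TPM in mESCs and 24.3, 22.9 and 17.8 in mOPCs. Its mESC values were close together, with an SD on the log2 scale smaller than in all but 3.53% of tested genes. They rest on 72, 32 and 36 tags, too few to read this closeness as a trait of the gene. Fosl2 was 11.2-fold higher in mOPCs (log2 fold change 3.48 ± 0.15 SE, adjusted p = 4.72e-22). Fosl1 (Fra-1), its relative and an AP-1 target itself, went the other way. It had 41, 22 and 32 tags in the mESC libraries (1.08, 1.32 and 1.74 TPM) and 1, 0 and 0 tags in the mOPC libraries. From the pooled counts it was 119-fold higher in mESCs, with a 95% exact binomial interval of 20.9 to 4764, which covers counting error only.

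The Jun family was measured at higher levels than the Fos family in mESCs, and its 3 members differed in direction. Jun, the partner of Fos in the best known AP-1 dimer, had 78.1, 67.8 and 65.3 TPM in mESCs and 525, 421 and 483 in mOPCs. Every mOPC library lay well above every mESC library. The difference was 6.76-fold (log2 fold change 2.75 ± 0.09 SE, adjusted p = 1.3e-24).

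Junb, which can hold back Jun activity, had 135, 118 and 113 TPM in mESCs and 81.9, 44.4 and 46.4 in mOPCs. The groups did not overlap, but mOPC 1 stood nearly midway between them. Junb was 2.12-fold lower in mOPCs (log2 fold change -1.09 ± 0.29 SE, adjusted p = 0.0182). Without mESC 1 the adjusted p was 0.0626, without mOPC 3 it was 0.0579, and without mOPC 1 the log2 fold change was -1.43.

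Jund, the least inducible of the Jun genes in most cells, had 205, 158 and 166 TPM in mESCs and 268, 205 and 248 in mOPCs. These ranges nearly touched. The 1.36-fold rise (log2 fold change 0.44 ± 0.10 SE, adjusted p = 0.000387) was the smallest difference among the members, and 15.6% of all tested genes differed by less. The shares of the Jun genes in the summed level of all 10 members differed as well. Junb took 19.3% to 19.8% in mESCs and 2.77% to 3.94% in mOPCs, Jund 26.5% to 29.5% and 12.9% to 14.8%, and Jun 11.1% to 11.4% and 25.2% to 29.0%. The sum includes Egr1, which took 39.9% to 44.7% of it in mOPCs, so the lower share of Jund there is not a lower level.

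Of the remaining genes, Egr1, a zinc-finger factor induced through serum response elements, had 73.9, 76.7 and 69.1 TPM in mESCs and 931, 579 and 700.2 in mOPCs. It reached the highest level of all members in mOPCs and held 39.9% to 44.7% of their summed tags there, against 10.6% to 12.9% in mESCs. The rise was 10.1-fold (log2 fold change 3.33 ± 0.16 SE, adjusted p = 3.37e-09). In mOPCs, 99.8% of tested genes had a lower level than Egr1.

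Ier2, a nuclear protein of growth factor responses, had 189, 161 and 160.0 TPM in mESCs and 46.4, 38.9 and 39.1 in mOPCs. It was 4.10-fold lower in mOPCs (log2 fold change -2.04 ± 0.09 SE, adjusted p = 9.57e-22) and -2.67 over all tags inside the gene. Ier2 and Junb, both commonly induced together with Fos, therefore moved opposite to it here. Atf3, a bZIP factor best known from stress responses, had 5.15, 4.98 and 3.96 TPM in mESCs and 24.3, 28.7 and 24.2 in mOPCs. It rose 5.48-fold (log2 fold change 2.43 ± 0.12 SE, adjusted p = 5.98e-20), and its mOPC libraries did not share the excess of mOPC 1 seen in Fos and Fosb.

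**Figure D2:**
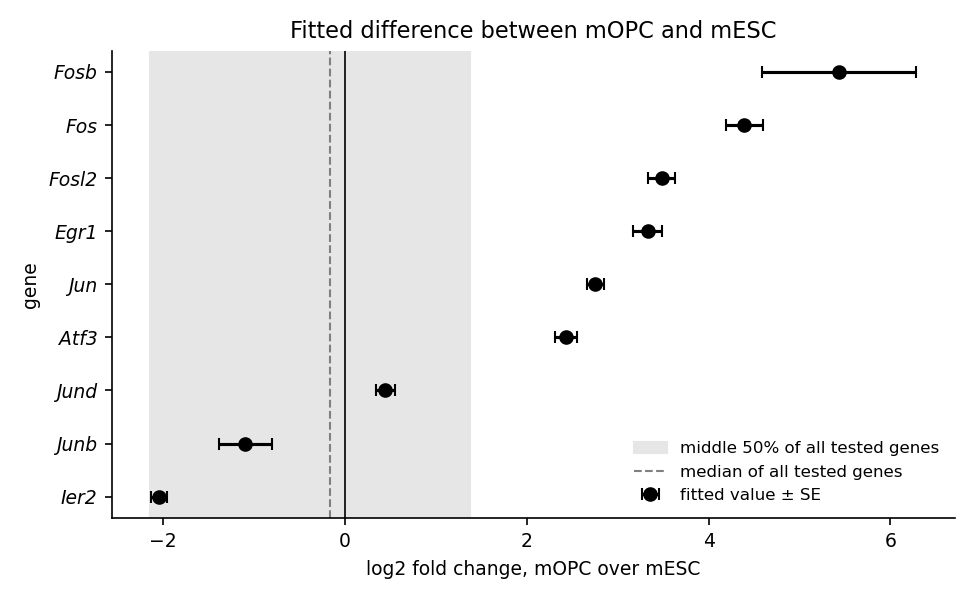
Fitted log2 fold change of mOPCs over mESCs (horizontal axis, points with SE, 3 libraries per cell type) for 9 immediate early genes, with the middle 50% of all tested genes as a grey band (-2.14 to 1.38) and their median dashed. Fosl1 is not drawn because its value rests on 1 mOPC tag. The 5 genes from Atf3 (2.43) to Fos (4.40) lie beyond the band, while Jund, Junb and Ier2 lie inside it. Fosb (5.44) also lies beyond it, but passed the filter through mOPCs alone and so had to differ.

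The mOPC libraries differed among themselves in these genes. With tags in all 3 mOPC libraries, 9 members could be ranked, and 8 had their highest level in mOPC 1, where 37.7% of all tested genes were highest. That share covers every tested gene, and genes without any mOPC tag count in it for mOPC 1, so it is not restricted as the members are. Relative to the mean of mOPC 2 and 3 on the log2 scale (0.5 TPM added), mOPC 1 was 2.34-fold higher in Fosb, 1.8-fold in Junb, 1.5-fold in Fos and 1.46-fold in Egr1. These ratios exceeded those of 99.99%, 99.97%, 99.67% and 99.52% of tested genes. In Jun, Jund, Ier2 and Fosl2 the ratio lay between 1.16 and 1.2, above those of 91.3% (Jun) to 94.0% (Fosl2) of tested genes. In Atf3 it lay at 0.922, above 24.0%. Related lists did not share this order throughout. Counting genes whose mOPC mean reached 1 TPM, 9 of 16 feedback genes, 7 of 12 heat shock and stress genes, 11 of 28 other immediate early genes, 5 of 16 AP-1 and bZIP partners and 6 of 28 upstream factors and kinases were highest in mOPC 1. Fos, Egr1 and Jun remained called without mOPC 1, at log2 fold changes of 4.18, 3.13 and 2.68.

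Start positions were then compared at single-base resolution, within 100 bp of the dominant position. The dominant position lay at 85473889 of chromosome 12 for Fos, 95052197 of chromosome 4 for Jun, 84978719 of chromosome 8 for Junb, 70698936 of chromosome 8 for Jund, 84662853 of chromosome 8 for Ier2, 34861207 of chromosome 18 for Egr1 and 191183253 of chromosome 1 for Atf3. In these 7 genes all 6 libraries had the same dominant position. Jun, Egr1 and Atf3 had it within the annotated 5′ UTR or at its first base, and Fos, Junb and Ier2 1 bp before the annotated start, Jund 13 bp before it. For comparison, 52.9% of 8334 protein-coding genes with at least 100 tags in the region in each library kept 1 dominant position in all 6. Jun, Junb, Jund, Egr1 and Ier2 met this limit and all 5 kept 1 position, while Fos and Atf3 did not meet it. Fosb and Fosl2 had 2 dominant positions among their libraries, with few mESC tags. In Fosl2 the position 87 bp upstream held 10 and 8 tags in mESC 1 and 2, against 9 and 6 at the dominant one.

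Of the 10 members, Fos, Junb, Jund, Egr1 and Ier2 started sharply in every library. The width from the 10th to the 90th percentile of tags was 2 or 3 bp for Fos in every library, 3 bp for Junb and Jund, 3 or 4 bp for Egr1 and 4 to 6 bp for Ier2. A typical gene was far broader, with medians over the 8334 genes of 45 bp (mESCs) and 44.3 bp (mOPCs), and only 3.94% and 4.14% had at most 10 bp. Jun was broader, at 19, 26 and 13 bp in mESCs and 23, 24 and 24 bp in mOPCs, with a main cluster and a minor one 17 to 20 bp further on. Fosb was broader still in mOPCs, at 35, 33 and 35 bp, because part of its tags lay 30 to 34 bp after the dominant position at 19310046 of chromosome 7. Its mESC tags (12, 2 and 1 in the region) were too few for a width. Fosl2 was spread over 94 to 125 bp in all libraries. Atf3 was 4 bp wide in each mOPC library and 44, 35 and 5 bp in mESCs, from 192, 81 and 70 tags. The 24, 12 and 20 mESC tags of Fosl1 in the region gave 11, 60 and 21 bp.

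**Figure D3:**
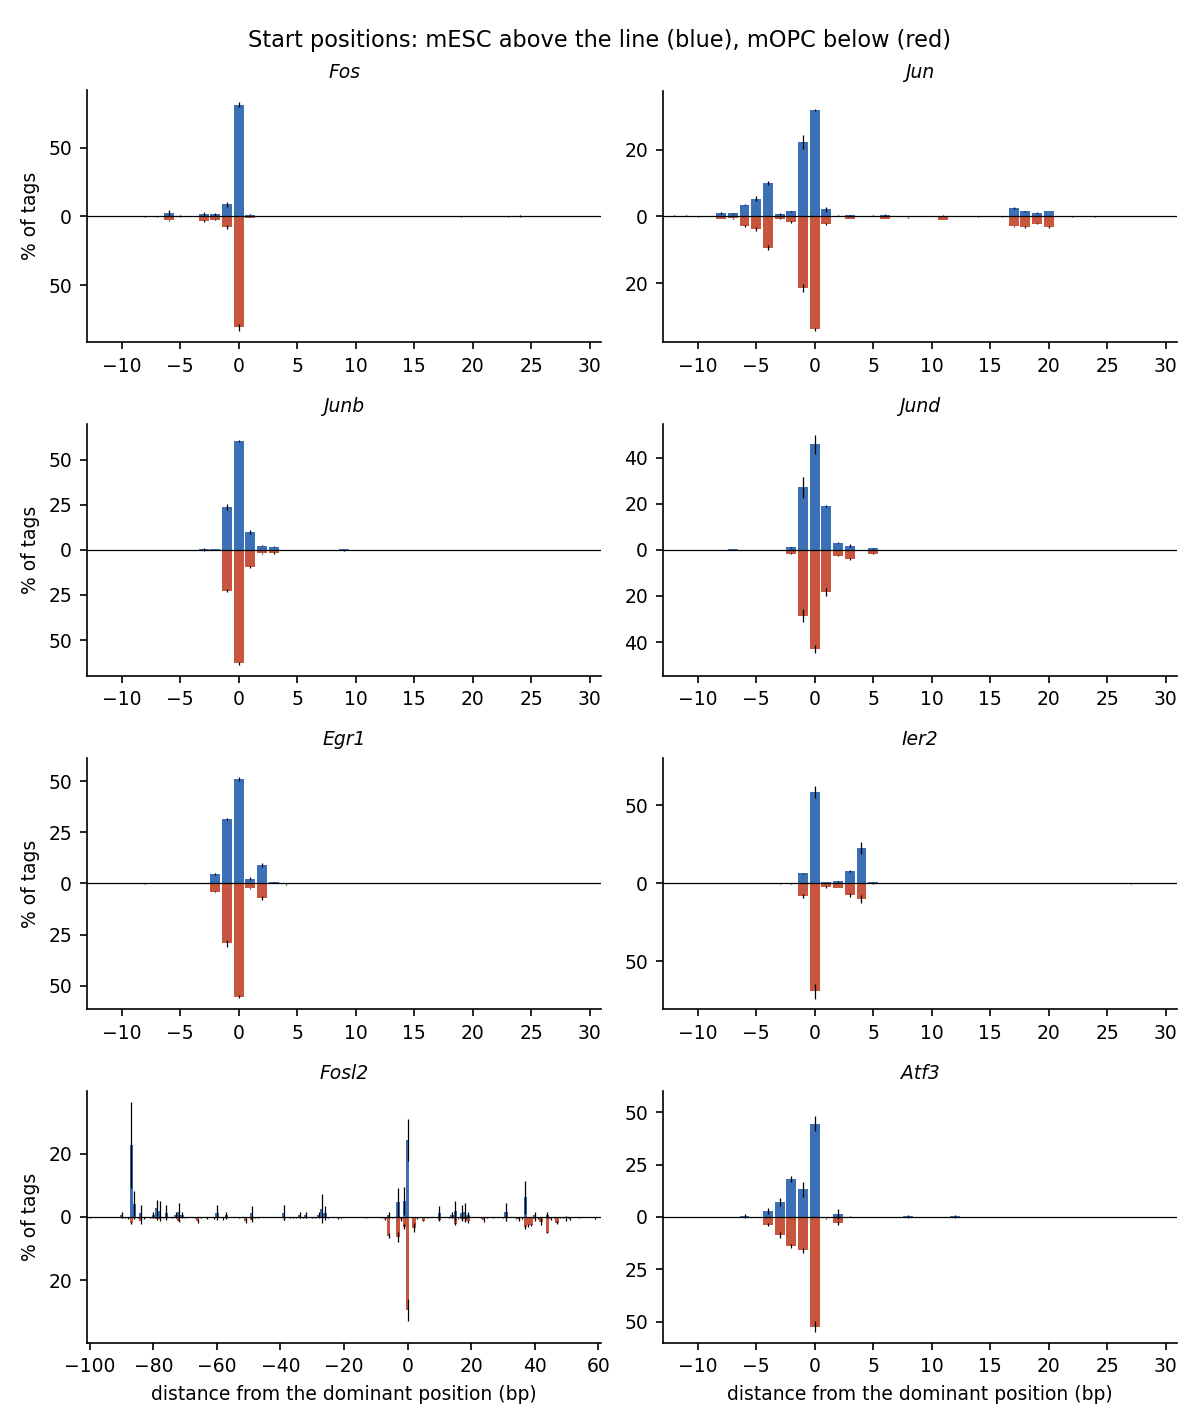
Share of tags (%, vertical axis, mean ± SD of 3 libraries) by distance in bp from the dominant position, with mESCs drawn upwards and mOPCs downwards from the line, both as positive shares. The Fosl2 panel covers a wider range. Fos puts 81.2% of its mESC tags and 80.5% of its mOPC tags on 1 base, Ier2 shows a second position 4 bp downstream that is larger in mESCs, and Fosl2 another 87 bp upstream, at a mean of 22.9% in mESCs and 1.96% in mOPCs.

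Sharpness was tested in the 5 members with at least 100 tags in the region in each library: Jun, Junb, Jund, Egr1 and Ier2. The widths of the cell types overlapped in all 5, where 28.5% of the 8334 genes were wider in mOPCs without overlap and 28.9% narrower. These shares come from mostly broader genes, with medians of 45 and 44.3 bp. Junb and Jund were 3 bp wide in every library, Egr1 3 or 4 bp and Ier2 4 to 6 bp, which leaves little room to separate in whole bp. The share of tags at the dominant position separated the cell types in 4 of the 5 members, all higher in mOPCs. Over the 8334 genes 29% separated in this direction and 31.9% in the other. Jun had shares of 31.5%, 32.2% and 31.9% in mESCs and 34.4%, 33.5% and 33.7% in mOPCs. Junb had 59.5%, 60.8% and 60.6% against 62.8%, 62.5% and 63.7%, and Egr1 49.7%, 51.5% and 51.2% against 56.0%, 54.6% and 55.6%. In each of these genes the difference was small but wider than the spread within a cell type.

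Ier2 showed the largest shift, from 55.3%, 62.9% and 58.4% in mESCs to 65.2%, 74.3% and 67.9% in mOPCs. Its second position, 4 bp downstream, took 26.3%, 18.7% and 22.8% of tags in mESCs and 11.4%, 6.74% and 10.8% in mOPCs. Jund overlapped, with 42.3%, 50.2% and 45% against 41.7%, 44.9% and 42.4%. A two-sided exact permutation test gave p = 0.1 for each of the 4 separated shares, the smallest p that 3 against 3 libraries allow, and the adjusted p over the 10 tests of width and share was 0.25 or more. No difference in sharpness thus passed the test.

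**Figure D4:**
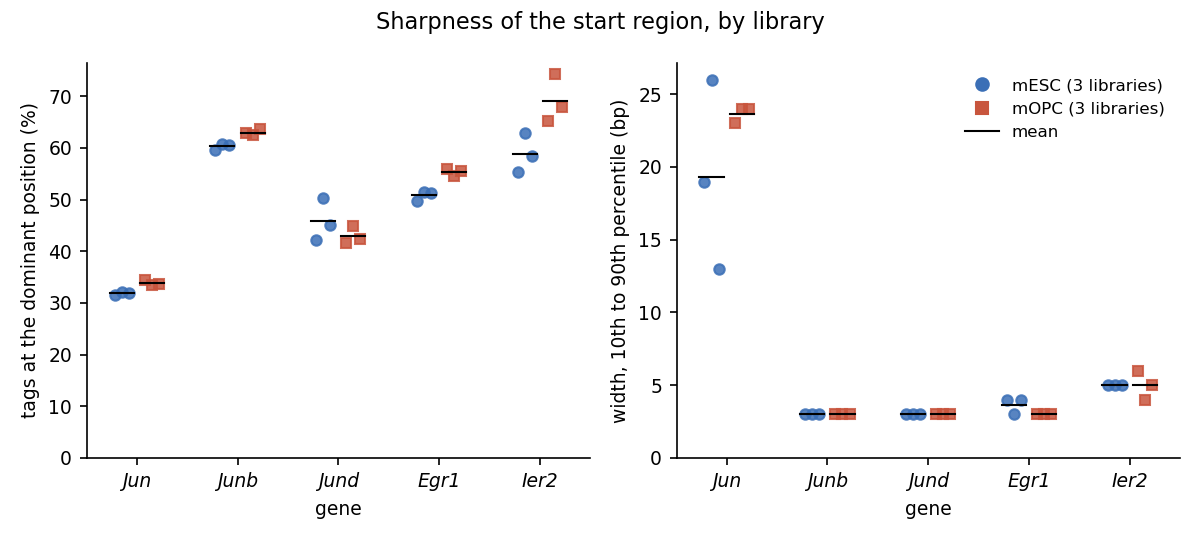
Share of tags at the dominant position (left, %) and width from the 10th to the 90th percentile of tags (right, bp) within 100 bp of the dominant position, for each mESC (circles) and mOPC library (squares), with means as lines. The shares of Jun, Junb, Egr1 and Ier2 are higher in every mOPC library, and the widths overlap in all 5 genes.

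Members with fewer tags were described without a test. Fos had 79.1% to 83.1% of its tags on the dominant base in mESCs (91 to 207 tags) and 77.6% to 82.7% in mOPCs, so that a 20.9-fold difference in level came with the same start. Atf3 had 41.1% to 48.1% in mESCs and 49.6% to 54.6% in mOPCs, at a position 87 bp inside the nearest annotated transcript. Around position 191217945, near the far annotated end upstream, it had 0 tags in mESCs and 7, 2 and 7 tags in mOPCs. For Egr1 nearly all tags came from the downstream of its 2 annotated start regions (99.9% to 100% in each library).

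Fosl2 used several starts. Around position 32136471 of chromosome 5, 622 bp downstream of the dominant position 32135849, lay 29.3%, 30.2% and 27.7% of its tags in mOPCs and 15.3%, 31.2% and 19.4% in mESCs, where this is 11, 10 and 7 tags. The ranges overlapped. The position 87 bp upstream of the dominant one took 18.5%, 38.1% and 12% of the tags in the region in mESCs and 1.79% to 2.28% in mOPCs, from 54, 21 and 25 mESC tags in all. Fosl1 tags in mESCs fell into a cluster at 5447897 of chromosome 19 (24, 12 and 20 tags), inside the gene, and another 199 bp upstream (17, 10 and 12 tags), next to an annotated start. The single mOPC tag lay in the upstream one.

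Tags on the opposite strand within 500 bp upstream of the dominant position were counted as a further readout. They were few, and mostly higher in the cell type where the gene was higher. Fos had 0.145 ± 0.0793 opposite TPM in mESCs (SD, n = 3) and 2.97 ± 0.684 in mOPCs, 2.42% and 2.36% of its own level. Jun, where the annotated antisense gene Junos lies on that strand, had 1.90 ± 0.431 and 11 ± 0.864, or 2.69% and 2.31%. Fosl2 had the largest share, at 25.1% and 25.3% of its own level. In Junb the opposite tags were at 0.655 ± 0.0527 TPM in mESCs and 2.19 ± 0.314 in mOPCs, where the gene itself was lower. In Atf3 they were at 0.860 ± 0.0169 in mESCs and 0.389 ± 0.0865 in mOPCs, where the gene was higher. No test was run on these counts.

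The genes around the members were compared as a description. Within 1 Mb of Jun, all 8 other protein-coding genes tested had a log2 fold change below 0 (median -1.43), against 2.75 for Jun. Around Fos 10 of 26 and around Egr1 14 of 30 neighbours lay above 0, with medians of -0.41 and -0.22. Around Fosl2 20 of 26 neighbours were above 0, with a median of 2.39, around Atf3 12 of 18 (0.71), around Fosl1 47 of 89 (0.09) and around Fosb 17 of 47 (-1.31). Junb and Ier2 lie close together on chromosome 8, where the median of all 773 genes was -0.92, and 43 of 55 and 46 of 60 of their neighbours lay below 0 (medians -1.45 and -1.57). Their neighbourhoods overlap, so these counts and medians are not separate observations. The values of Junb (-1.09) and Ier2 (-2.04) lay within the middle 50% of their neighbours, whereas Jund, on the same chromosome with a neighbour median of -0.59, was higher in mOPCs.

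Lists of related genes differed in direction, and their counts are read against 42.7% higher and 48.5% lower calls over all tested genes. Unlike the counts of members, both keep genes that passed the filter through mESCs alone or mOPCs alone and so had to differ. Among these are Ptgs2, Ier3, Mapk10, Egfr, Zfp36 and Hspb1, which are given below as a description. Of 30 other immediate early genes tested, 14 were called higher, 14 lower and 2 did not pass, with a median log2 fold change of 0.06. Phlda1 rose from 13.7 ± 0.118 to 416 ± 28.6 TPM (SD, n = 3), Trib1, which brings proteins to degradation, from 5.28 ± 0.758 to 117 ± 5.54, and Egr3 from 0.674 ± 0.222 to 12.4 ± 1.46. On the other side, Klf2, also a pluripotency factor, fell from 528 ± 58.8 to 4.6 ± 1.10, Ier3 from 17.5 ± 1.89 to 0.257 ± 0.0322, and Ptgs2, the inducible cyclooxygenase, from 5.25 ± 0.534 to no tag (at least 157-fold lower, from 3 tags over the group).

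Of 18 other AP-1 and bZIP partners, 13 were called higher (72.2%), 4 lower and 1 not (median 1.03), and 11 were called higher with DESeq2 or without mESC 1. Batf3 rose from 0.647 ± 0.152 to 6.52 ± 1.01 TPM, while Atf2, a dimer partner of Jun, fell from 599 ± 28.9 to 195 ± 13.7. Among 30 upstream factors and kinases, 12 were called higher, 13 lower and 5 not (median -0.01). The JNK gene Mapk10 rose from 0.113 ± 0.0633 to 16.74 ± 1.66. Map2k7, one of the kinases above JNK, rose from 35.8 ± 1.2 to 150.1 ± 11.8, while Fgfr2 fell from 679 ± 59.1 to 17.3 ± 0.727. Egfr had 744 tags in mESCs and 1 in mOPCs, a ratio of 935 with a 95% exact binomial interval of 167 to 36974.

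All 17 feedback genes were called, 9 higher and 8 lower (median 0.34). Higher were Dusp2, a MAP kinase phosphatase, from 3.14 ± 0.458 to 21.2 ± 2.58, Nab2, the corepressor of Egr1, from 5.06 ± 0.170 to 32.8 ± 4.36, and Spry1 from 42.8 ± 4.62 to 225 ± 25.5. Lower was Zfp36, which binds AU-rich elements in short-lived mRNAs and speeds their decay, from 33.1 ± 1.47 to 0.0546 ± 0.0129, and its relative Zfp36l1 from 670.4 ± 25 to 52.4 ± 6.10. Of 14 heat shock and stress genes, 13 were called lower (92.9%) and 1 higher (median -1.68). Hspb1 fell from 54.9 ± 9.48 TPM to none (at least 1753-fold lower, from 3 tags over the group), and Hsp90aa1 from 200.3 ± 12.5 to 13.0 ± 2.00, while Trib3 rose from 39.3 ± 4.06 to 132 ± 15.2. Placing genes without tags in a cell type at their bound changed none of these 5 medians.

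**Figure D5:**
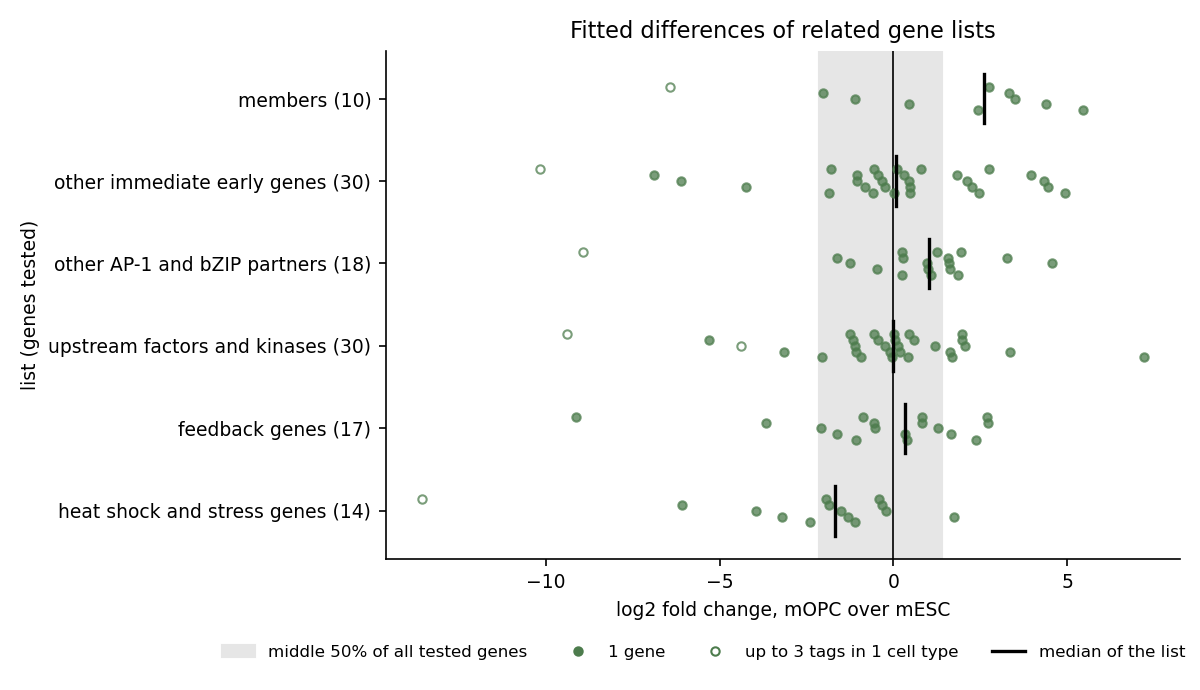
Fitted log2 fold change of mOPCs over mESCs (horizontal axis) for each gene of 6 lists, with the number of genes tested in brackets, list medians as vertical lines and the middle 50% of all tested genes in grey. Open circles are genes with at most 3 tags in 1 cell type, whose fitted value is no bound. The 10 members have the highest median (2.59) and heat shock and stress genes the lowest (-1.68), and every list holds genes on both sides of 0. The lists keep genes that passed the filter through 1 cell type alone, among the members Fosb and Fosl1. The median of the other 8 members is also 2.59.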

How the data were processed

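CAGE tags of nuclear RNA from 3 mESC and 3 mOPC libraries were used. The authors trimmed and uniquely aligned the tags to mm10. The aligner differs between sources, since the submitters' processing notes name BWA 0.5.9 (with CASAVA 1.8) and the study's methods another. The deposited values are raw counts: for each base and strand with at least 1 tag, how many tags of that library begin there. Tags carry no molecular identifiers, so intervals cover counting error only. Totals of 16657021 to 40928704 tags set the precision for weak genes.

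Counts within 500 bp of GENCODE vM21 5′ ends were summed per gene, a tag near several genes counting for each, and fitted over all 55450 genes with edgeR 4.0.16 (R 4.3.3, robust quasi-likelihood test, filterByExpr, library totals as sizes, Benjamini-Hochberg over 18490 genes), with DESeq2 1.42.0 as an alternative. Python 3.11.15 was used with pandas 2.3.3, scipy 1.17.1, numpy 2.4.6 and matplotlib 3.10.9. The script was tested on simulated counts with known changes. Groups of single values were compared by two-sided exact permutation tests. Replicate numbers were not used to pair libraries. No 2 libraries of a cell type agreed within sampling noise (chi-square per degree of freedom at least 4.73).

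The members and gene lists were chosen with earlier results of these data known. From each list the text draws on up to 3 called genes per direction with the largest fold change, no overlap between cell types and a mean of at least 5 TPM. Cyr61, Ctgf, Mkl1 and Mkl2 were not matched by symbol and are not reported, and some other genes that this rule selects are not reported here. Alternatives were other scalings, windows, annotated ends, filters and depths, another tool, a replicate block, other definitions of width, and each library left out in turn.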

Additional observations from a re-analysis of the deposited data

How the results depend on the processing

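Over all 10 members, 7 were called higher and 3 lower in mOPCs, against 42.7% and 48.5% of all tested genes. The counts include Fosb and Fosl1, which passed the filter through mOPCs alone and mESCs alone and so had to differ. These counts stayed within 1.5 times under every alternative tried on them. The counts in the 5 related lists did so under the other scalings, DESeq2, no filter, the block and each library left out, and were not computed for other windows, annotated ends, tags inside the gene or thinning. With the replicate number as a replicate block, 7 members were called higher and 3 lower, with no member's call changed. The log2 fold change of Fos was 4.41 and that of Junb -1.13. The errors did change with the block. For Junb the SE fell from 0.288 to 0.098 and the adjusted p (edgeR) from 0.0182 to 5.39e-11, while the SE of Fosl1 rose from 0.606 to 0.690. Over all genes the block gave 7885 higher and 8974 lower calls, against 7899 and 8965 without it. Across genes, the deviations of same-numbered libraries of the cell types correlated weakly (0.0203, 0.0987 and 0.0241). Pairs with unlike numbers ranged from -0.127 (mESC 1 with mOPC 2) to 0.0967 (mESC 1 with mOPC 3). Whether libraries of the same number share a condition was not tested. The count of members without overlap in width, 0 as given, was 2 with the 5th to 95th percentile and 1 within 500 bp, and ranged from 0 to 2 with each library left out (2 without mESC 2). The cause was not tested. The width difference of Jun turned from 4.33 to -17.7 bp with the 5th to 95th percentile. Junb lost its call without mESC 1 (adjusted p = 0.0626, edgeR) and without mOPC 3 (0.0579), and its log2 fold change ranged from -1.43 to -0.94 over all alternatives. The fitted value of Fosl1, which rests on 1 mOPC tag, ranged from -8.25 to -4.56. Depth limits Fosb and Fosl1, with 18 mESC and 1 mOPC tags in all, and the starts of Fosl2, Fosl1 and Fosb in mESCs.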
